A study of Caenorhabditis elegans with 2 samples.

Results

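Distal intergenic peaks of the Hox protein MAB-5 were described on the autosomes of Caenorhabditis elegans. A peak counted as distal when its summit lay outside the span of every protein-coding gene and more than 2000 bp from the start of each of them. Of the 1742 autosomal peaks in the list that had passed the authors' irreproducible discovery rate procedure (IDR, a filter on how reproducibly peaks rank in replicates), 263 met this rule, which is 15.1% (95% Wilson interval 13.5 to 16.9, counting error only). The same list held a further 432 peaks on X and 23 on the mitochondrial genome, which were not considered. Chromatin bound by MAB-5 fused to enhanced green fluorescent protein (eGFP) had been recovered by immunoprecipitation and sequenced (ChIP-seq) from whole larvae of stage L2. Both samples came from strain OP27, whose genotype is listed as unc-119(ed3) III; wgIs27, where wgIs27 is an insertion targeting mab-5, and the animals were pooled males and females of unknown age. The samples are 2 biological replicates of 1 group, and mab-5 is what the antibody field holds. The insertion is a limit of the model, since DNA it carries in addition to the genome could add to the signal at the native mab-5 locus. The share of signal from the insertion was not tested. There was no second genotype, stage or treatment, so each contrast below is between kinds of sequence, between gene neighbourhoods or between the replicates. The lists hold no read counts, so the depth behind each peak is unknown.

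The MAB-5 protein belongs to the Antennapedia class of Hox proteins and is known for patterning the posterior body and directing the migration of the left Q neuroblast descendants. Hox proteins bind DNA alone at short AT-rich cores and jointly with PBC-class homeodomain partners at longer composite sites, while MEIS-class proteins such as UNC-62 take part in the same complexes. Most regulatory sequence in this compact genome lies just upstream of genes. Sequence far from all gene starts can hold enhancers or unannotated upstream starts, because many nematode transcripts are trans-spliced and the annotated start is then the splice site rather than the site of transcription initiation.

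Sequences around the summits are shown for 7 peaks that carry the features described below. Each is 201 bases of the plus strand of ce11, centred on the summit, read from the RefSeq copy of that assembly. In the first 4, capitals mark the Hox-PBC composite TGATNNAT on either strand. In the next 2 they mark GAGAGA or its reverse complement. In the last they mark a mature microRNA of mir-52.
The strongest distal peak, between T23G4.2 and T23G4.127 (chrIV:13694714-13694914): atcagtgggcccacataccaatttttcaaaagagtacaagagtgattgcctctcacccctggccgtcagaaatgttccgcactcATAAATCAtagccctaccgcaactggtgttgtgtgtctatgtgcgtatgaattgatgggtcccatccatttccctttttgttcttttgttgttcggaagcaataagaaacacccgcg
The peak between srlf-26 and nyn-1, which held 2 composites (chrIV:13682797-13682997): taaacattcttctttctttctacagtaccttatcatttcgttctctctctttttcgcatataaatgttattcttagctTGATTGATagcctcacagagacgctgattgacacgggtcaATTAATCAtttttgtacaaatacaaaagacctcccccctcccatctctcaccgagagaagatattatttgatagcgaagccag
The peak between rpy-1 and dpy-10 (chrII:6707554-6707754): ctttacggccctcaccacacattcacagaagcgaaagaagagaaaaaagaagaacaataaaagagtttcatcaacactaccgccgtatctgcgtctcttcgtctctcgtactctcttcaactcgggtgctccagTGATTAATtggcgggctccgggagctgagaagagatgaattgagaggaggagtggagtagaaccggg
The peak upstream of unc-62 (chrV:4495161-4495361): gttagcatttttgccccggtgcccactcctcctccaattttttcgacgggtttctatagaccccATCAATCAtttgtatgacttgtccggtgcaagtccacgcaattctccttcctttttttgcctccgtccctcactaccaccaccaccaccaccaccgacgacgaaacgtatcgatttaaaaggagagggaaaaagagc
The peak between T04C4.3 and fnip-2 (chrIV:2219535-2219735): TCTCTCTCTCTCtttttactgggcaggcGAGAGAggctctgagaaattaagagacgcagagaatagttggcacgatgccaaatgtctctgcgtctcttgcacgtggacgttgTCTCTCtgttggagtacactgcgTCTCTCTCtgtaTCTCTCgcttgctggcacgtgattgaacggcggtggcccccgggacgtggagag
The peak upstream of nhr-88 (chrII:2973965-2974165): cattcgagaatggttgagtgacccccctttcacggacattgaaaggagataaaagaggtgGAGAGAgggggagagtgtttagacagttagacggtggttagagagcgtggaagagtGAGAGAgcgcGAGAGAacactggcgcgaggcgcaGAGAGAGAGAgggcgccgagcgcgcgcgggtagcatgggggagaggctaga
The peak at mir-52 (chrIV:14033903-14034103): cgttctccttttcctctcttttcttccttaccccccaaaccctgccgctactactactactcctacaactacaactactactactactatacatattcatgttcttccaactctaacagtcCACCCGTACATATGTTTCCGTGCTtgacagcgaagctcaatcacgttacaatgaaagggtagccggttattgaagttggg

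Distal sequence was neither the poorest nor the richest class in peaks. It makes up 15.5% of the autosomes, 12830890 bp, and held 20.5 peaks per Mb. Intergenic sequence within 2000 bp of a gene start held 57.3 per Mb (958 peaks), and protein-coding gene spans, introns included, held 9.83 per Mb (521 peaks). Within the distal class the density was lower at greater distance. It was 26.9 per Mb between 2000 and 3000 bp from the nearest start, 20.3 between 3000 and 4000 bp (56 peaks), 19.04 between 4000 and 5000 bp (34 peaks) and 14.3 beyond 7500 bp (25 peaks). These densities are set side by side without a test, because the peaks of 1 pooled list are not replicates, and the same holds for the other contrasts between kinds of sequence below.

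**Figure D1:**
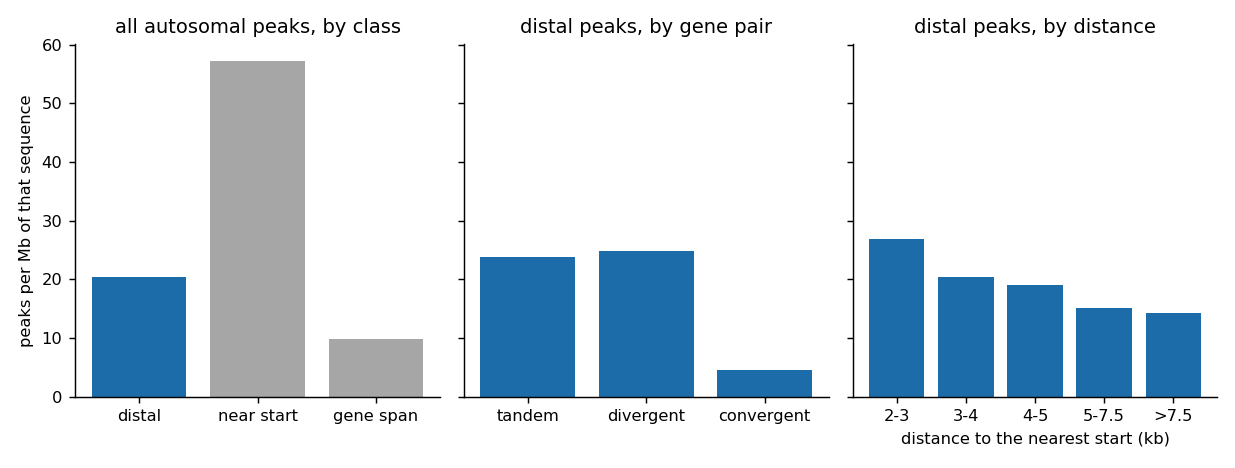
Peaks per Mb (y axis) for all autosomal IDR peaks by class of sequence (left), for distal peaks by the orientation of the flanking genes (middle) and for distal peaks by distance to the nearest protein-coding gene start in kb (right); each bar divides a count of pooled peaks by the length of that sequence, so there is no replicate error. Density was 20.5 in distal sequence against 57.3 near starts, and 4.57 between convergent genes against 24.9 between divergent ones.

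The values on both sides of the 2000 bp limit show which peaks it divides. The 3 members nearest to it lay 2007 bp from the start of csnk-1 (signal 62.4), 2011 bp from that of rpy-1 (signal 85.6) and 2013 bp from that of glb-15 (signal 48.4). The 3 nearest peaks outside it lay 1998 bp from tmem-231 (signal 44.6), 1982 bp from Y44A6C.1 (signal 44.03) and 1980 bp from K02E7.1 (signal 37.97). The signal is the authors' score per peak in the list made from both replicates together, whose scale no source used here gives, and it serves only to rank peaks within that list.

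The signal of distal peaks ran from 29.7 to 203 with a median of 41.7, beside medians of 46.5 near starts and 42.3 in gene spans. A signal above 100 was found in 12 members, and 3 stood among the 100 strongest IDR peaks. In the upper 50% of the IDR list by signal stood 44.1% of distal peaks, beside 54.1% of peaks near starts and 43.8% in gene spans. The nearest start lay 2007 to 11579 bp away with a median of 3319 bp, and 61 members (23.2%) were more than 5000 bp from every start. The summit lay on the upstream side of its nearest start in 198 of 263 (75.3%, interval 69.7 to 80.1), while 62.4% of distal bases do. Closeness to the 3' ends of genes was much as in distal sequence at large: 26 summits (9.89%) lay within 500 bp of one, against 8.97% of distal bases.

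The orientation of the flanking genes went with density. Pairs are tandem when both are read in the same direction, divergent when both start at the interval and convergent when both end there. Tandem pairs flanked 162 peaks (61.6%) and held 23.7 per Mb, and divergent pairs flanked 89 (33.8%, interval 28.4 to 39.8) and held 24.9 per Mb. Convergent pairs flanked 11 (4.18%, interval 2.35 to 7.33), although they flank 18.8% of distal sequence, and held 4.57 per Mb. The remaining peak lay at a chromosome end, outside homt-1 (signal 47.01). Convergent pairs were also the lowest at each length of interval. In intervals of up to 5000 bp their density was 5.66 per Mb (6 peaks) against 31.0 for tandem pairs and 15.01 for divergent pairs, the last from 1 peak in 66612 bp, and in those over 10000 bp it was 7.22 (5 peaks) against 17.1 for tandem and 19.8 for divergent pairs. None of the 109 convergent intervals of 5000 to 10000 bp that contain distal sequence held a distal peak, while tandem and divergent intervals of that length held 27.1 and 34.8 per Mb. The convergent share was 7.04% without replicate 2 (19 of 270) and 4.73% without replicate 1 (13 of 275), both within the interval given above. Among peaks more than 5000 bp from a start it was 11.5% (7 of 61).

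The 3 strongest distal peaks were the only members within the first 100 of each replicate's own list. The strongest, on chromosome IV at 13694677 to 13694925 (signal 203), ranked 44 in replicate 1 and 48 in replicate 2. It lay 5258 bp upstream of T23G4.2 and 778 bp beyond the 3' end of T23G4.127, and its composite lay 13 bp from the summit. The next (chrI:435453-435714) had signal 172 and ranked 72 and 63. It lay 8437 bp upstream of tol-1, which encodes the Toll-like receptor of the worm. The third, on chromosome I at 16898 to 17119 (signal 164, ranks 89 and 56), lay between converging genes, 179 bp past the 3' end of the neuropeptide gene nlp-40 and 468 bp past that of rcor-1, which encodes a CoREST-type corepressor. Its interval spans only 646 bp, but the starts of these genes lie 5521 and 9765 bp away.

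The next 10 by signal included 2 upstream of Frizzled-type Wnt receptor genes. That near lin-17 (signal 104, ranks 260 and 218) lay 3553 bp upstream of its start, over the non-coding RNA gene Y71F9B.21 and 2910 bp from the start of F32B5.1. That near mig-1 (signal 96.5, ranks 116 and 331) lay 3934 bp upstream of its start and held 2 composites. Upstream of cmd-1, the calmodulin gene, a peak of signal 131 (ranks 187 and 82) lay 4772 bp from its start. A peak of signal 128 (ranks 134 and 98) lay between the diverging genes T04C4.3 and fnip-2, and another of signal 128 (ranks 145 and 99) lay 2574 bp upstream of the nuclear hormone receptor gene nhr-88. Between the diverging F54F12.1 and Y39E4B.6 the strongest peak had signal 122 (ranks 127 and 117). The peak 2057 bp upstream of sup-26, which encodes an RNA-binding protein, had signal 111.8 and ranked 384 in replicate 1 but 125 in replicate 2. The peak between sgn-1 and F07H5.13 (signal 103) ranked 197 and 167. The other 2 shared an interval between snt-1 and egl-27. The lowest place that any of the 10 took in either replicate was 384.

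The remaining members among the 20 strongest were spread over 4 chromosomes, and 2 of them lay between converging genes. These were the peak between srlf-26 and nyn-1 (signal 89.2, ranks 382 and 207), which held 2 composites, and the peak between T23E1.1 and Y67D8B.1 (signal 84.1, ranks 287 and 265), 9618 bp from the nearest start. A peak between the diverging genes Y105C5A.1 and pqn-76 (signal 93.2) ranked 132 and 404. A peak 7152 bp upstream of C46F11.6, whose other neighbour is npr-15, a neuropeptide receptor gene, had signal 91.6 and ranked 188 and 299. The others lay between F54F12.1 and Y39E4B.6, upstream of rpy-1 and upstream of jph-1, and are described below.

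The replicates placed most members high, but not all. Ranks were read in each replicate's own list of 30000 peaks and background, where a peak was matched if it overlapped by at least 1 bp. As a measure of support, a peak counted as placed high when it ranked within the first part of a replicate's list, as long as the IDR list. Both replicates placed high 163 of the 263 (61.98%, interval 56.0 to 67.6), beside 63.1% of all autosomal IDR peaks. The share was 65.7% for peaks near starts and 58.9% for those in gene spans. Replicate 1 alone placed 37 members high and replicate 2 alone 55, and neither did so for 8. No overlapping peak was listed for 3 members in replicate 1 and for 1 in replicate 2. That last one lay between sbp-1 and plr-1 (signal 30.7) and ranked 579 in replicate 1. Ranks ran from 44 to 23152 in replicate 1 (median 1247.5) and from 48 to 6931 in replicate 2 (median 1131.5). Across the 259 members matched in both, Spearman's rho of the ranks was 0.324, a description across peaks that share both libraries, beside 0.479 over the 1466 other autosomal peaks. The pooled signal followed this support, which is partly built in, since that score was made from both replicates together. Of the 87 strongest members 85 were placed high by both, of the next 88 there were 58, and of the 88 weakest 20. The summits called in the replicates lay within 50 bp of each other in 173 of 259, with a median shift of 30 bp.

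**Figure D2:**
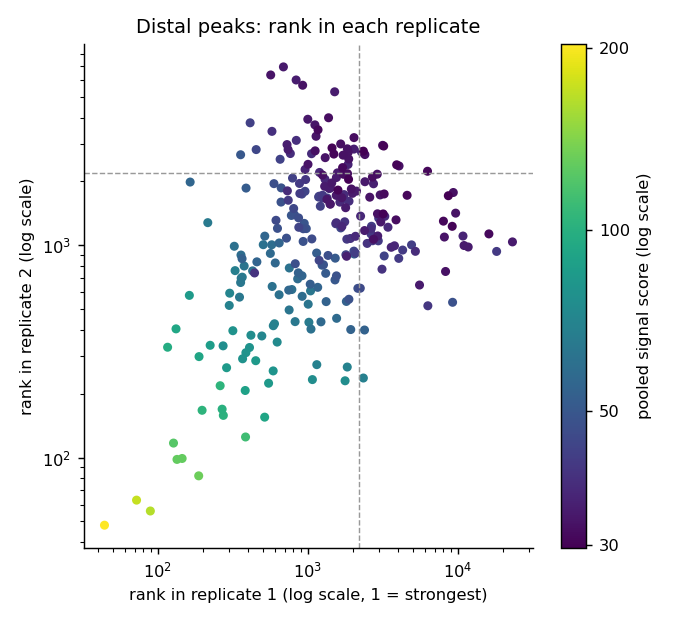
Rank in replicate 1 (x axis, log scale) against rank in replicate 2 (y axis, log scale) for the 259 distal peaks matched in both lists, coloured by pooled signal score on a log scale; dashed lines mark the length of the IDR list. The 3 strongest peaks sit at the lower left within rank 100 of both, and weak peaks spread up to rank 23152 in replicate 1 and 6931 in replicate 2.

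Distal peaks were scattered over many intervals, with a few dense ones. Of the 3893 intervals between protein-coding genes that contain distal sequence, 216 (5.55%) held a distal peak, and 187 of these held 1. There were 22 with 2 peaks, 4 with 3, 2 with 5 and 1 with 9. In 156 cases the distal peak was the only one in its interval, with no other peak near a start. Intervals with a peak had a median length of 7690.5 bp, and all those with distal sequence had a median of 4251 bp.

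The interval with 9 peaks, 18574 bp on chromosome II, lies between snt-1, which encodes synaptotagmin, and egl-27, which encodes a protein related to the MTA subunits of chromatin remodelling complexes and is known for roles in cell polarity and migration. All 9 lay upstream of egl-27 and past the 3' end of snt-1. From the snt-1 side their signals were 33.9, 34.4, 55.2, 101, 41.9, 100.2, 32.5, 51.4 and 50.1. The strongest pair ranked 273 and 158, and 268 and 169, in replicates 1 and 2. Of the 9, 6 were placed high by both replicates. The other 3 were the weakest, and the weaker replicate placed them at 6931, 2388 and 2913. Composites occurred in 3 peaks on the snt-1 side, the strongest included, and GAGAGA in 4 of the other 6.

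The interval upstream of mab-5 itself held 5 distal peaks in 9991 bp, which run from the start of mab-5 to the 3' end of cyk-7, a gene known for its role in cytokinesis. From the mab-5 side their signals were 31.8, 52.1, 74.0, 60.7 and 58.1, at 2175, 5165, 5890, 7256 and 9700 bp upstream of its start. The first ranked 1374 in replicate 1 and 3991 in replicate 2, while the other 4 ranked between 350 and 1144 in both. A sixth peak in the interval lay within 2000 bp of a start. The insertion bears on this locus as said above.

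Of the 4 intervals with 3 peaks, those with the highest signals are described here. The interval upstream of tol-1 held 3, of signals 31.6, 47.9 and 172, all with a composite. The interval between F54F12.1 and Y39E4B.6 held 3, of signals 122, 92.1 and 37.5, none with one.

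**Figure D3:**
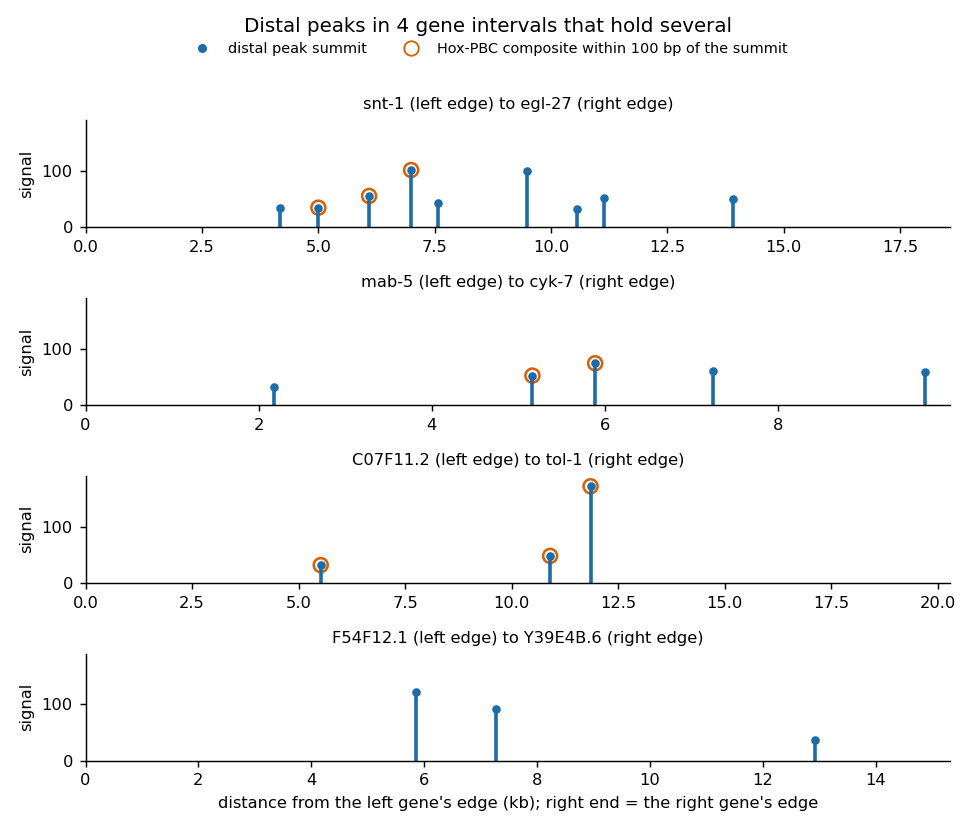
Signal score (y axis) of each distal peak against its distance in kb from the left gene's edge (x axis, scaled separately in each panel) in 4 intervals with several distal peaks (ties at 3 peaks went to the highest signal); rings mark peaks with a Hox-PBC composite within 100 bp of the summit, and peaks within 2000 bp of a gene start are not drawn. The snt-1 to egl-27 interval holds 9 peaks, of which the strongest have signals of 101 and 100.2.

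Hox genes and the gene for their cofactor UNC-62 were among the neighbours of distal peaks. In all, 426 of 17242 autosomal protein-coding genes (2.47%) flanked a distal peak, and 6.49% of the 6562 genes that have distal sequence next to them. Of the 6 Hox genes, each of which has distal sequence beside it, mab-5, lin-39 and ceh-13 flanked 10 distal peaks between them. With shared intervals counted once, the 6 genes border 68.7 kb of distal sequence, and the density there was 146 peaks per Mb against 20.5 in all distal sequence. The other 3, egl-5, nob-1 and php-3, flanked none, although egl-5 flanked a distal peak in the list of replicate 1 alone. The density of 146 per Mb includes the mab-5 interval, on which the insertion bears. That interval held 5 of the 10 peaks in 7954 bp of distal sequence, and the density without it was not computed. Outside the mab-5 interval, lin-39 and ceh-13 accounted for 5 of the 10. Their shared interval of 19027 bp on chromosome III held peaks of signal 83.2, 60.2 and 56.6 at 7777, 12525 and 16405 bp upstream of lin-39, which ranked 449 and 286, 428 and 758, and 745 and 615 in replicates 1 and 2. A further peak lay 3495 bp beyond the 3' end of lin-39 (signal 51.1), and another beyond the 3' end of ceh-13 (signal 33.7) held 3 composites. Of the 2 autosomal cofactor genes, ceh-20 has no distal sequence beside it and flanked no distal peak. The other, unc-62, flanked 2 peaks, of signals 79.97 and 65.0, at 2200 and 5604 bp upstream of its start, each with a composite. They ranked 587 and 215 in replicate 1 and 256 and 1279 in replicate 2.

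Genes for Wnt signalling and cell migration, the processes in which mab-5 acts in the Q lineage, were among the neighbours too. Of 27 autosomal Wnt genes 5 flanked a distal peak, all upstream: lin-17 and mig-1 as above, the Wnt gene cwn-2 (signal 55.3), the Prickle gene prkl-1 (signal 41.2) and pop-1, which encodes the TCF factor (signal 34.4). The peak at prkl-1 ranked 18155 in replicate 1 and 936 in replicate 2. Of 28 migration and guidance genes 5 did, namely ina-1, an alpha integrin gene (signal 75.4), ptp-3, a LAR-type phosphatase gene (signal 47.6), mig-6, the papilin gene (signal 47.5), vab-2, an ephrin gene (signal 36.7), and unc-44, an ankyrin gene (signal 33.4). The peak at ina-1 also lay 3499 bp upstream of tax-4, and it ranked 1771 in replicate 1 and 230 in replicate 2. Of 21 epidermal and seam cell genes 4 did: mab-9, a T-box gene (signals 69.1 and 43.4), tlp-1, a zinc finger gene (signal 47.3), eff-1, the cell fusion gene (signal 42.7), and lin-22, a Hairy-related gene (signal 30.8). Both peaks at mab-9 lay between it and srh-105, and the weaker was nearer to srh-105, 2882 against 3812 bp from the starts. They ranked 1831 and 1793 in replicate 1 and 267 and 903 in replicate 2. The same peaks count for the T-box and chemoreceptor lists below. None of 8 autosomal heterochronic genes flanked a distal peak, for which the upper Wilson limit is 32.4%.

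The other lists are given by their counts. Nuclear hormone receptor genes flanked a distal peak in 6 of 247 cases (2.43%: nhr-88, nhr-20, nhr-31, nhr-258, nhr-138 and nhr-34), homeobox genes outside the Hox group in 2 of 60 (lin-11 and ceh-48), ribosomal protein genes in 2 of 77 (rps-25 and rpl-21), and basic helix-loop-helix genes in 3 of 29 (hlh-10, lin-22 and sbp-1). T-box and Sox genes did so in 2 of 19 (mab-9 and tbx-34), M lineage genes in 1 of 15 (dbl-1), motor and touch neuron genes in 1 of 23 (unc-64) and body wall muscle genes in 2 of 22 (unc-45 and act-1). Chemoreceptor genes did so in 4 of 1261 cases (0.317%: srw-60, srh-105, srbc-2 and srh-16), and 547 of them have distal sequence beside them. The list by name prefix also took in 6 serpin genes (srp), none of which flanked a distal peak, and they are left out of these counts. These counts rest on few genes. In the strongest peaks of replicate 1 alone and replicate 2 alone, as many as the IDR list has, the counts were 4 and 3 for Hox genes, 4 and 4 for Wnt genes, 4 and 5 for migration genes, 4 and 4 for epidermal genes, and 9 and 7 for the chemoreceptor list. They were 3 and 4 for nuclear hormone receptor genes, of which 2 were found in the IDR list and in both replicates. For basic helix-loop-helix genes they were 2 and 2, for body wall muscle genes 3 and 3, for M lineage genes 2 and 1, for ribosomal protein genes 1 and 2, and for the other homeobox genes 2 and 1. Over all autosomal protein-coding genes the counts were 413 in replicate 1 alone and 450 in replicate 2 alone. Of the 426 in the IDR list, 280 were found in both replicates too, the background for the counts that follow. Genes found in the IDR list and in both replicates numbered 3 for Hox, 3 for Wnt, 4 for migration and 3 for epidermal genes. There were 3 on the chemoreceptor list, 2 among body wall muscle genes, and 1 each among basic helix-loop-helix and ribosomal protein genes. For M lineage and the other homeobox genes the number was 0. There, replicate 2 alone gave fozi-1 and zag-1, neither of them in the IDR list. Flanking a peak says nothing of regulation by it.

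**Figure D4:**
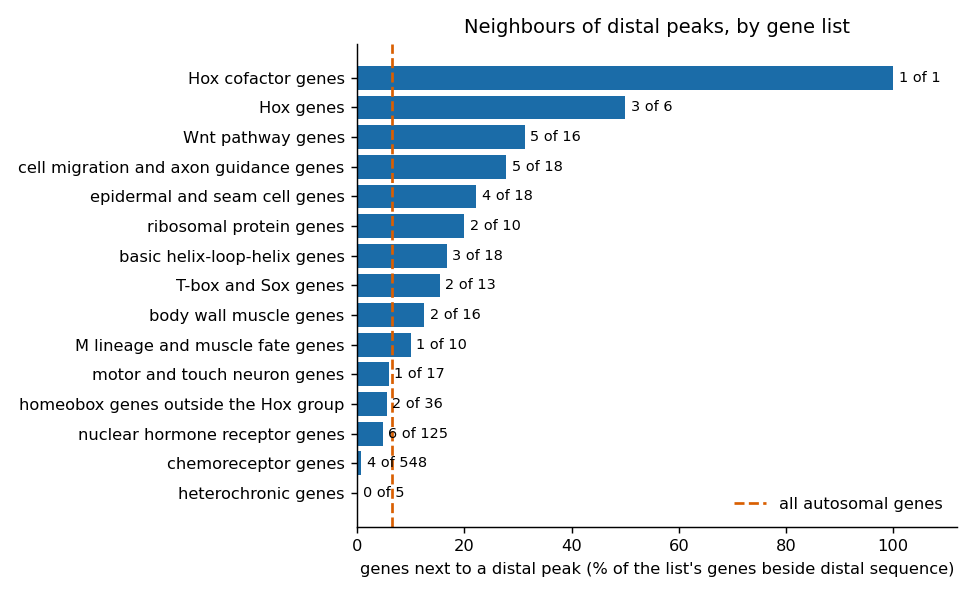
Share of each list's autosomal genes next to a distal peak, in percent of those genes that have distal sequence beside them (x axis), with the counts printed at each bar; the dashed line marks 6.49%, the share over all such autosomal genes. The Hox list stands at 3 of 6 and the chemoreceptor list, here with 6 serpin genes of similar name, at 4 of 548.

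Annotated non-coding genes lay over 31 summits (11.8%, interval 8.43 to 16.2), beside 9.19% of summits near starts and 11.3% in gene spans. Such genes cover 15.9% of distal sequence. The kinds differed. Short genes of the class that Ensembl calls ncRNA lay over 24 summits (9.13%, interval 6.21 to 13.2) and cover 1.45% of distal sequence, whereas pseudogenes lay over 1 summit (0.380%) and cover 12.8%. The summits under an ncRNA touched 30 such genes, of 76 to 448 bp, and in 7 cases ncRNAs were annotated on both strands. Examples are F31E8.8 and F31E8.14 at the strongest peak between snt-1 and egl-27 and T14B4.17 and T14B4.18 at the peak 2011 bp upstream of rpy-1, which encodes a rapsyn-related protein, and 2495 bp past the 3' end of the collagen gene dpy-10 (signal 85.6, ranks 223 and 338).

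Longer RNAs and small RNA genes lay over few summits, but they also cover little distal sequence. For long intergenic RNA genes the share of summits was 1.52%, and they cover 0.836% of distal sequence. The shares for microRNA, snoRNA and piRNA genes were 0.380% each, and they cover 0.0412%, 0.0482% and 0.796%. Long intergenic RNA genes lay over 4 summits, led by linc-128 upstream of cmd-1 and linc-57 between lin-39 and ceh-13. The summit in linc-57 also lay 746 bp from the start of mir-231. A single microRNA gene, mir-8209, lay over a summit, at the peak 3319 bp upstream of the junctophilin gene jph-1 (signal 83.7, ranks 162 and 581). The piRNA gene 21ur-8457 lay over a summit between C47A4.1 and ent-4 (signal 63.9), the snoRNA gene F30H5.4 over one past the 3' end of unc-45 (signal 43.6), and linc-91 over one between chd-7 and W09C3.4 (signal 41.2). The pseudogene lay over a summit between hmt-1 and sup-35 (signal 32.03). No tRNA gene lay over a summit (0 of 263, upper Wilson limit 1.44%), but tRNA genes cover only 0.0323% of distal sequence. Within 500 bp of a tRNA gene start lay 2 summits (0.760%), beside 0.939% of summits near starts and 2.50% in gene spans. The microRNA gene mir-52 had 2 distal peaks at its start, with summits 233 bp (signal 63.6) and 5 bp (signal 50.1) upstream. Both matched the same peak in replicate 1, at rank 356, and ranked 668 and 2672 in replicate 2, so replicate 1 gave no separate support for the pair. The mature sequence of 24 bases in capitals above begins 21 bp after the second summit. The start of mir-80 lay 197 bp from a weaker summit (signal 30.3). Counting every non-coding gene but those for piRNAs, 124 members (47.1%, interval 41.2 to 53.2) had a start within 2000 bp. This share was 33.4% for peaks near starts and 42.03% for those in gene spans. For these 124 members, remoteness from protein-coding starts was not remoteness from all annotated starts. The share of distal bases equally close to such a start was not computed, so the count has no background to be set against.

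Motifs were counted in the 201 bases centred on each summit, on both strands. The Hox-PBC composite TGATNNAT was present at 79 of 263 distal summits (30.04%, interval 24.8 to 35.8), beside 16.3% near starts and 27.6% in gene spans. Of 61922 windows of the same length that tile all distal sequence, 13.9% held it. The windows 1000 bp to the left and right of the same summits, where they were still distal, held it in 13.4% and 17.3%. The commonest forms were TGATTTAT (26 sites), TGATTGAT (16) and TGATAAAT (11), and 21 members had 2 or more. The homeodomain core TAATTA went the other way. It occurred at 3 distal summits (1.14%, interval 0.389 to 3.30) against 9.61% of the tiles, and at 6.47% and 5.37% of peaks near starts and in gene spans. A single member held both.

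The commonest of the 7 motifs searched was GAGAGA, a run of alternating G and A. It occurred at 149 distal summits (56.7%, interval 50.6 to 62.5), beside 37.6% near starts, 46.3% in gene spans and 10.5% of the tiles. The E-boxes CACGTG and CAGCTG occurred at 7.98% and 7.22%, against 2.71% and 2.89% of the tiles. The MEIS-type core CTGTCA (8.75% against 6.55%) and the GATA core GATAAG (8.37% against 6.67%) were close to the tiles, their intervals of 5.90 to 12.8 and 5.59 to 12.3 including them. None of the 7 motifs was found at 57 members, which says only that these letters were not in the window. By strength, the composite was at 34.5%, 27.3% and 28.4% of the 87 strongest, the next 88 and the 88 weakest members, and GAGAGA at 69.0%, 48.9% and 52.3%.

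Base composition moved with these shares. Windows at distal summits had a median GC content of 44.3%, against 33.8% for the tiles, and a median of 15.9% of their bases were marked as repeats against 38.3%. Within the GC range from 39.8% to 48.3%, which holds 138 members and 12356 tiles, the composite was at 29.0% of members and 10.6% of tiles, GAGAGA at 57.2% and 17.4%, CACGTG at 10.9% and 4.67%, and TAATTA at 0.725% (1 member) and 4.48%. The contribution of repeat content was not tested. The strongest peaks of each replicate alone gave shares of 25.2% and 29.8% for the composite, 56.7% and 53.8% for GAGAGA, and 1.48% and 1.82% for TAATTA, in replicate 1 and replicate 2.

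**Figure D5:**
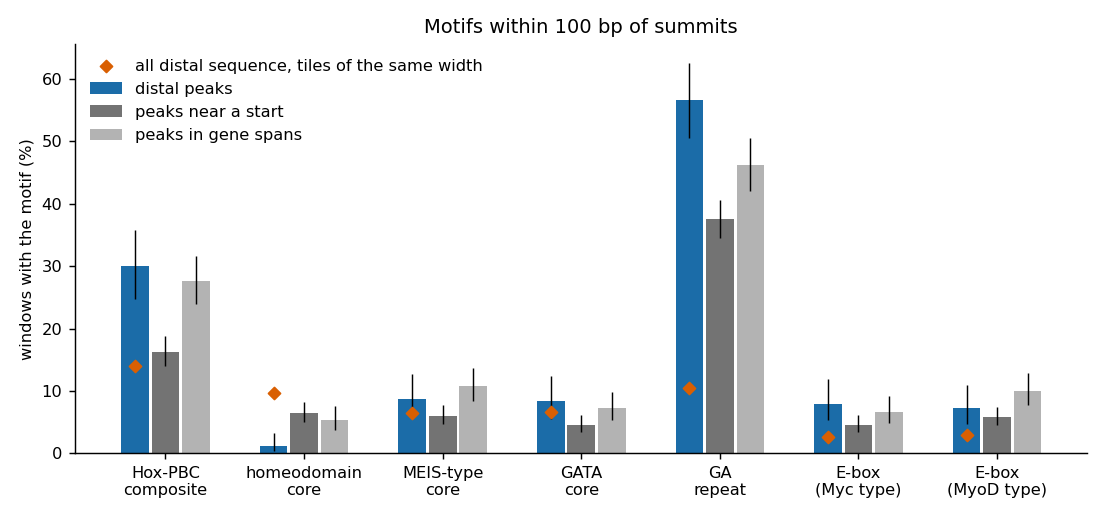
Share of windows of 201 bases with each of 7 motifs on either strand (y axis, percent) at distal summits, summits near a start and summits in gene spans (bars, with 95% Wilson intervals), and in tiles of all distal sequence (diamonds). At distal summits the GA repeat stands at 56.7% against 10.5% of tiles and the Hox-PBC composite at 30.04% against 13.9%.

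Distal peaks were denser in chromosome centres than in the arms. The inner 40% of the autosomes held 131 of them (49.8%, interval 43.8 to 55.8) and 35.7% of distal sequence, at 28.6 per Mb against 18.3 in left arms and 14.01 in right arms. The shares for peaks near starts and in gene spans were 51.04% and 53.7%. By chromosome the density was highest on III, at 30.02 per Mb (58 peaks), and lowest on V, at 14.2 per Mb (45 peaks), with 25.4 on I, 21.1 on II and 18.003 on IV. Chromosome IV had the most distal peaks, 65, and the largest distal share of its peaks, 19.4% against 12.6% on I, but it holds 28.1% of distal sequence and 24.7% of distal peaks.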

How the data were processed

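Per the text records deposited with the samples, the authors made a relaxed list of peaks and background for each replicate and for both replicates pooled, against a control alignment, and derived an optimal IDR list from them. No source used here gives the aligner, the peak caller or the threshold of the IDR step. The deposited signal is a score per peak. The deposited −log10 of the q-value was 3.66 for all IDR peaks, so only the score ranked peaks. It is 1 pooled value without replicate error, so ranks in each replicate's list of 30000 served as replicate information. The replicates shared 0 peaks of identical position and signal. Nothing in the lists gives depth.

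The ce11 lists were used, since ce11 is WBcel235; no peak passed a chromosome's end. Genes came from Ensembl release 115 and sequence from RefSeq's copy. Counts, shares and 95% Wilson intervals (counting error only) were computed in Python 3.11.15 (scipy 1.17.1, pandas 2.3.3, numpy 2.4.6) and plotted with matplotlib 3.10.9. The functions for class, interval, peak match and motif were tested on simulated data. Peaks named are the 20 strongest, those in the 5 intervals with the most, ties at 3 peaks broken by signal (1 of the 5 is not reported here), the 3 strongest per non-coding class, those in both replicates' first 100, the 3 on each side of the 2000 bp limit and the 3 longest intervals, with their neighbours and up to 6 genes per list. The examples upstream of unc-62 and at mir-52 and mir-80 were chosen after their values were seen, as were the comparisons by distance, by interval length and within a GC range. The members and the 15 gene lists were chosen with earlier results of these data known. Alternatives tried were other distance limits, overlaps, windows, thresholds and each replicate alone.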

Additional observations from a re-analysis of the deposited data

How the results depend on the processing

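Of 88 alternative values over 13 results, 65 moved by less than the criterion used (the counting interval of a share, or 1.5 times a count) and 23 moved further. Changes of direction were not assessed. The distal share, with its count and flanking genes, was 24.2% (422 peaks, 701 genes) beyond 1000 bp from a start, 3.502% (61 peaks, 89 genes) beyond 5000 bp, and 13.5% (116 peaks, 188 genes) in the upper 50% of the IDR list by signal, where the median signal was 60.4. Beyond 5000 bp the density was 14.8 per Mb, the convergent share 11.5%, the divergent share 24.6% and the share over non-coding genes 16.4%. In the upper 50% the density was 9.04 per Mb, the share in both replicates' lists 94.8% and the share with TAATTA 0%. That share in both lists was 53.2% with 50% reciprocal overlap and 23.2% within the first 1000. The composite share was 18.6% within 50 bp and 39.5% within 200 bp, non-coding genes within 200 bp gave 26.2%, and the inner 60% held 66.9%. These moves were seen on changing limits, windows, overlaps or list lengths. Some are built in. A shorter list holds fewer peaks in the same sequence, and a wider window around the same summits cannot lower a share. The causes of the others were not tested.

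With each replicate's own strongest peaks, as many as the IDR list has, in place of the pooled list, the number was 270 to 275, the share 15.6% to 15.998%, flanking genes 413 to 450, density 21.04 to 21.4 per Mb, convergent 4.73% to 7.04%, divergent 32.7% to 37.4%, centres 49.6% to 51.6%, both lists 60% to 61.9%, composite 25.2% to 29.8%, GAGAGA 53.8% to 56.7%, TAATTA 1.48% to 1.82% and non-coding 12.96% to 13.1%. The median signal has no such value, since each list has its own scale. The GAGAGA and TAATTA alternatives, and gene lists by replicate, were added after seeing the data. No paired analysis was possible because there is only 1 group. Depth is unknown, so how far it limits weak peaks cannot be given.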

Other observations

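The share of intervals with a distal peak was higher in longer intervals, while the density of peaks was not. It was 1.82% of intervals up to 5000 bp, 9.39% of those up to 10000 bp, 14.4% of those up to 20000 bp and 17.5% of the 57 intervals from 20000 to 40000 bp, which held 14 distal peaks. The densities were 19.3, 25.4, 19.7 and 11.3 per Mb. The 5 longer intervals held 0. The longest with one lies between irld-18 and the DM-domain gene dmd-6, 35563 bp, where a peak of signal 40.1 lay 3855 bp upstream of dmd-6 and ranked 6314 in replicate 1 and 519 in replicate 2. The next, 26771 bp between C30G12.4 and C30G12.2, held a peak of signal 56.7 that lay 2486 bp upstream of C30G12.2, with the start of linc-107 127 bp away. The third, 24913 bp between nlr-1, which encodes a neurexin-like protein, and F35G2.1, held a peak of signal 34.6 over the ncRNA gene F35G2.17 that ranked 835 and 6014. Of the 263 distal peaks, 8 lay more than 10000 bp from every protein-coding start, and 4 of these were in the interval between snt-1 and egl-27. Peak width went with signal: 230 members were 344 bp wide with the summit in the middle, and this was the width of 57 of the 87 strongest members, 85 of the next 88 and all 88 weakest. No member was wider.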
